A study of Mus musculus with 47 samples.

Results

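Nphs1, Podxl, Wt1, Synpo, Ptpro, Magi2, Cdkn1c and Clic5, 8 of the 22474 genes in the deposited count table, are genes of the podocyte, the epithelial cell that wraps the capillaries of the kidney glomerulus. They were chosen by symbol, as genes of the slit diaphragm, cytoskeleton and nucleus of that cell, with earlier results of these data known. Each symbol matched a row of the table. All 8 passed the filter on low counts that left 18786 genes for testing.

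The libraries were made from polyA RNA of the kidney, labelled metanephros, of wild-type mice of 3 inbred strains. C57BL/6J is the usual reference strain, CAST/EiJ is derived from wild mice of another subspecies, and NZO/HlLtJ is an obese strain used as a model of type 2 diabetes. Females and males of each strain received a diet labelled 10% fat + fiber or 44% fat + fiber, the second described in the protocol as high in fat and sugar, starting at 6 weeks, and kidneys were taken at 15 weeks. No other treatment was given. The 47 libraries fall into 12 groups of strain, sex and diet, with 4 libraries (replicates, numbered here in accession order) in each except CAST/EiJ males on 10% fat, which has 3. Whether each library comes from its own animal is not in the labels, and p-values here reflect library-to-library spread, which may be technical.

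Podocytes extend interlocking foot processes over the glomerular capillary, and the gaps between the processes are bridged by the slit diaphragm, the last layer of the filter that keeps protein in the blood. The slit diaphragm is tied through adaptor proteins to an actin cytoskeleton inside the foot process, and a charged surface coat keeps neighbouring processes apart. Mature podocytes hardly divide, and loss of the cells or flattening of their foot processes lets albumin into the urine, as in diabetic kidney disease.

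The members fall into 4 roles. Nphs1 encodes nephrin, the adhesion protein that spans the slit, and Magi2 encodes a scaffold protein that binds nephrin from inside. Podxl encodes podocalyxin, the main sialylated protein of the surface coat, and Ptpro encodes a receptor tyrosine phosphatase of the apical foot process membrane. Synpo encodes synaptopodin, an actin-associated protein of the foot process. Clic5 encodes a chloride intracellular channel family protein that links podocalyxin to actin through ezrin and is also made by glomerular endothelial cells. Wt1 encodes the transcription factor on which podocyte development and maintenance depend, and Cdkn1c encodes p57, a cyclin-dependent kinase inhibitor of the non-dividing podocyte.

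In GRCm38 coordinates, the build named in the submitters' processing notes, Nphs1 (ENSMUSG00000006649) lies at chr7:30458315-30487223 and Cdkn1c (ENSMUSG00000037664) at chr7:143458339-143461050. Podxl (ENSMUSG00000025608) lies at chr6:31519488-31563981 and Ptpro (ENSMUSG00000030223) at chr6:137252319-137463233. Wt1 (ENSMUSG00000016458) lies at chr2:105126529-105173616, Magi2 (ENSMUSG00000040003) at chr5:19227036-20704792 and Clic5 (ENSMUSG00000023959) at chr17:44188572-44280168. Synpo is ENSMUSG00000043079. Values are given per gene, so no isoform is told apart. An antisense gene, Gm44732 in the GENCODE M21 annotation, overlaps 30.7% of the exon bases of Cdkn1c, and the antisense gene Nphs1os overlaps 9.02% of those of Nphs1. The deposited table gave these partners at most 10.7 and 12.1 counts in any library, while the lowest counts of Cdkn1c and Nphs1 were 196 and 631. Of the 31-base words of their exons, 27.2% in Cdkn1c and 16.0% in Nphs1 also occur in another gene, so the split of those reads depends on the counting.

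Stretches of sequence around the transcription start were available from RefSeq (GRCm38.p6, C57BL/6J reference) for Nphs1, Ptpro, Magi2 and Clic5. The windows of Nphs1, Ptpro and Clic5 are shown because Nphs1 and Ptpro had the most female-biased levels in NZO/HlLtJ among the members while Clic5 was the member with the opposite sign there. Each is 250 bases before the annotated start and the 30 bases from it on, on the plus strand, and capitals mark the letters AGAACA, a core motif of androgen and glucocorticoid receptor binding sites.
Nphs1, chr7:30459808-30460087: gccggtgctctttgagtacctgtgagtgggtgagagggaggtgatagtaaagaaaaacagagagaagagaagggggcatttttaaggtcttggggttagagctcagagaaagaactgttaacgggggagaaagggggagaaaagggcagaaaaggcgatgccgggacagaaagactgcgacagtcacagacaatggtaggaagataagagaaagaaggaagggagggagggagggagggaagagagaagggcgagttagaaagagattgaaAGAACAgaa
Ptpro, chr6:137252049-137252328: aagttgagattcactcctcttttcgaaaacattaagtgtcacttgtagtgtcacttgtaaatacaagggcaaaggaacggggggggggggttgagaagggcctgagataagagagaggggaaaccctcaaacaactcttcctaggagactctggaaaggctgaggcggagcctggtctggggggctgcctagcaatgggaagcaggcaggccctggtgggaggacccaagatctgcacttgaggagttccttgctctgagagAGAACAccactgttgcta
Clic5, chr17:44188322-44188601: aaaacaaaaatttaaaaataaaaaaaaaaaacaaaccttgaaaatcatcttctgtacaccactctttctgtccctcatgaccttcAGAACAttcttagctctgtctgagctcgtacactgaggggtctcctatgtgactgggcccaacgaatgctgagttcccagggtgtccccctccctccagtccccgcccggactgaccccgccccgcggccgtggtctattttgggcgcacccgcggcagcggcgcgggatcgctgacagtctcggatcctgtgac
AGAACA was found 21 bases after the start in Nphs1, 12 bases after it in Ptpro and 165 bases before it in Clic5. The letters stood in the windows of Nphs1, Ptpro and Clic5 and in neither window of Magi2. Of 32851 RefSeq windows of 300 bases, searched on both strands, 19.0% hold them. A link between these letters and the sex differences was not tested. The Nphs1 window lies inside the GENCODE span of the gene, downstream of its outermost start. The same search over both strands for GCGGGGGCG, a WT1 and EGR zinc finger motif present in 2.91% of windows, found none in the windows of these 4 genes. CAGCTG, an E-box present in 16.3% of windows, and TAATTA, a homeodomain motif bound by LMX1B that 5.29% of windows hold, were found once each, in separate Magi2 windows.

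Levels are given as CPM, counts divided by library size, with the library sizes scaled by the trimmed mean of M values (TMM). Across the 47 libraries Podxl ranged from 180.5 to 342.1 CPM, with a median of 272.9, and Clic5 from 126.7 to 213.0, with a median of 154.9. Synpo had a median of 57.1 CPM, Nphs1 29.6, Ptpro 25.7, Magi2 12.2, Cdkn1c 11.3 and Wt1 10.2. Divided by the exon length of each gene, the order of the medians was Podxl (49.7 CPM per kilobase), Clic5 (17.6), Synpo (5.99), Cdkn1c (5.53), Nphs1 (4.48), Ptpro (3.83), Wt1 (1.64) and Magi2 (1.08). The surface coat gene thus stood first and the scaffold gene last per length, and Synpo and Cdkn1c differed by less than the spread of either gene across libraries. The highest library exceeded the lowest by 3.44-fold for Magi2 and for Cdkn1c, by 2.98-fold for Ptpro and by 1.68-fold for Clic5, with the other 4 members between 1.90-fold and 2.59-fold. Total counts per library ran from 34394546 to 58433712, and every member had at least 196 counts in each library.

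The tissue label was checked against marker lists. Summed levels of 8 proximal tubule markers were 11440 to 17420 CPM over the strain and sex classes and those of 7 markers of the medulla and collecting duct were 2802 to 7563 CPM, the latter mostly Umod and Slc12a1 of the thick ascending limb, with means of 3351 and 1550 CPM. The collecting duct water channel gene Aqp2 ranged from 47.5 to 186.0 CPM. In whole kidney RNA, changes in podocyte number, in RNA per podocyte and in RNA of other cells cannot be told apart. This holds for each single member below.

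**Figure D1:**
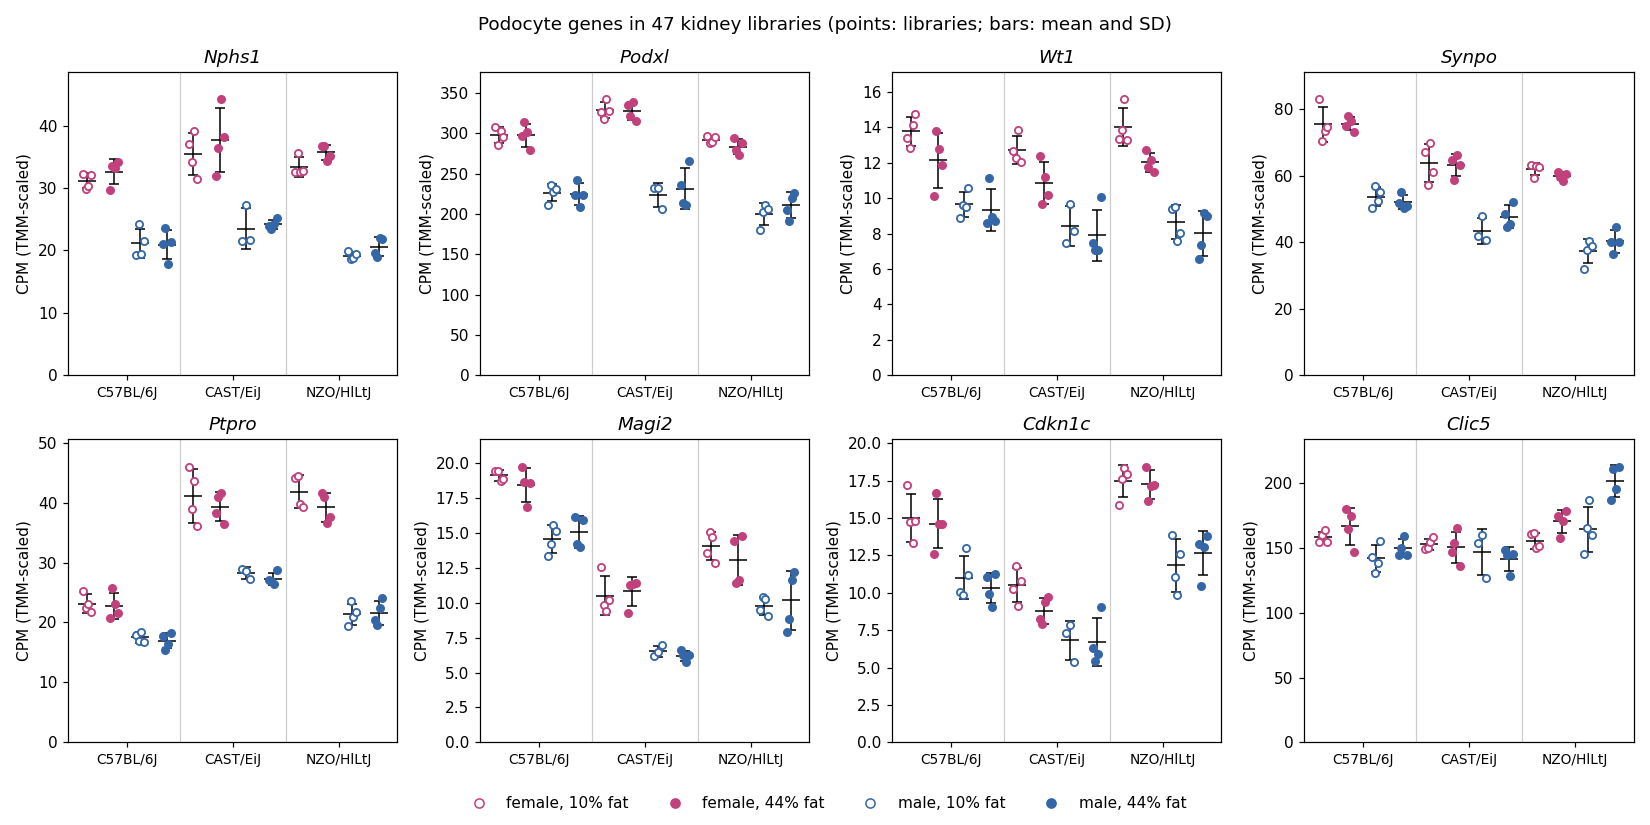
Level of each of the 8 genes (TMM-scaled CPM, vertical axis from 0) in 47 libraries by strain, sex and diet, with points for libraries and bars for the group mean and SD. Female libraries of Nphs1, Podxl, Synpo and Ptpro lie above male ones in every strain, and Magi2 and Cdkn1c are lowest in CAST/EiJ. Clic5 has its highest group mean in NZO/HlLtJ males on 44% fat, whose libraries lie between 186.8 and 213.0 CPM. Clic5 in NZO/HlLtJ males on 10% fat reaches 187.4 CPM.

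Sex was the contrast in which most members moved the same way. All members other than Clic5 were higher in females than in males in each of the 3 strains, by 1.27-fold to 1.88-fold averaged over both diets. Each strain has 8 female and 8 male libraries, except 7 from CAST/EiJ males. In C57BL/6J all 8 members passed the test and all were higher in females, against 47.9% of genes called in either direction and 25.1% called higher in females (edgeR quasi-likelihood test, Benjamini-Hochberg adjusted p under 0.05). In CAST/EiJ 7 of 8 were called, all higher in females, against 47.6% of all genes called and 23.7% called higher in females. In NZO/HlLtJ 7 were called higher and 1, Clic5, lower in females, against 49.9% called, 25.4% higher and 24.5% lower. The median log2 difference of the members, female minus male, was 0.42 in C57BL/6J, 0.53 in CAST/EiJ and 0.58 in NZO/HlLtJ, while that of all genes tested was 0.05, 0.05 and 0.04.

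Of the slit diaphragm genes, Nphs1 in C57BL/6J ran from 29.6 to 34.2 CPM in females, with a median of 32.2, and from 17.8 to 24.3 in males, with a median of 21.2. In CAST/EiJ the female libraries lay between 31.4 and 44.2 CPM around a median of 36.8 and the male ones between 21.5 and 27.2 around 23.9. In NZO/HlLtJ females ranged from 32.5 to 36.8 CPM (median 34.7) and males from 18.6 to 22.01 (median 19.5). Every female library of nephrin was above every male library of its strain. The log2 difference was 0.58 ± 0.06 (SE) in C57BL/6J, 0.62 ± 0.06 in CAST/EiJ and 0.80 ± 0.06 in NZO/HlLtJ, with adjusted p = 2.02e-11, 8.99e-12 and 1.39e-15 in edgeR.

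Magi2, the scaffold that binds nephrin, was 18.8 CPM in the median C57BL/6J female (16.9 to 19.8) and 14.7 in the median male (13.4 to 16.1). The CAST/EiJ medians were 10.7 CPM in females (9.29 to 12.6) and 6.27 in males (5.75 to 6.94), and the NZO/HlLtJ medians 13.98 (11.4 to 15.1) and 9.86 (7.94 to 12.2). The sexes did not overlap in C57BL/6J or CAST/EiJ and did in NZO/HlLtJ. Magi2 had its widest sex difference in CAST/EiJ, 0.75 ± 0.08 on the log2 scale (adjusted p = 2.00e-10), against 0.34 ± 0.07 in C57BL/6J (1.49e-04) and 0.44 ± 0.07 in NZO/HlLtJ (2.31e-06, edgeR).

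Podxl, the surface coat gene, had a median of 299.0 CPM in C57BL/6J females (279.0 to 313.7) and 225.6 in males (208.6 to 242.1). Its medians were 327.3 (315.4 to 342.1) and 232.1 (205.9 to 265.3) in CAST/EiJ, and 288.5 (272.9 to 296.8) and 205.6 (180.5 to 226.6) in NZO/HlLtJ. No female library fell to the level of a male library of the same strain. The female to male ratio of Podxl was 1.32 in C57BL/6J, 1.44 in CAST/EiJ and 1.40 in NZO/HlLtJ (adjusted p = 3.71e-10, 4.92e-13 and 9.17e-13, edgeR).

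Ptpro, the apical phosphatase, had medians of 22.7 CPM in C57BL/6J females (20.7 to 25.7) and 17.3 in males (15.5 to 18.5). In CAST/EiJ the medians were 40.0 (36.1 to 46.0) and 27.2 (26.5 to 29.0), and in NZO/HlLtJ 40.4 (36.6 to 44.4) and 21.3 (19.4 to 24.1). Females were again above males without overlap in each strain, and females of CAST/EiJ and NZO/HlLtJ covered nearly the same range while their males did not overlap. The log2 difference of Ptpro was 0.40 ± 0.05 in C57BL/6J, 0.54 ± 0.05 in CAST/EiJ and 0.91 ± 0.05 in NZO/HlLtJ (adjusted p = 5.71e-08, 7.33e-11 and 2.47e-18, edgeR).

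Among the cytoskeletal genes, Synpo had medians of 74.8 CPM in C57BL/6J females (70.5 to 82.9) and 52.0 in males (50.3 to 56.9). The corresponding values were 64.0 (57.1 to 69.7) and 45.5 (40.7 to 52.2) in CAST/EiJ, and 60.9 (58.3 to 63.3) and 39.4 (32.1 to 44.7) in NZO/HlLtJ. The sexes did not overlap in any strain. Synpo was 1.43-fold, 1.39-fold and 1.58-fold higher in females of C57BL/6J, CAST/EiJ and NZO/HlLtJ (adjusted p = 4.67e-12, 1.16e-10 and 3.40e-15, edgeR).

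Clic5 did not follow the other members. Its female and male medians were 161.9 CPM (147.3 to 180.0) and 144.9 (131.1 to 159.5) in C57BL/6J, 151.8 (136.3 to 165.3) and 145.4 (126.7 to 160.4) in CAST/EiJ, and 161.1 (149.8 to 178.7) and 187.1 (145.3 to 213.0) in NZO/HlLtJ. The sexes overlapped in all 3 strains. The log2 difference, female minus male, was 0.15 ± 0.05 in C57BL/6J (adjusted p = 0.0140), 0.07 ± 0.05 in CAST/EiJ (0.263; 95% interval -0.03 to 0.18) and -0.16 ± 0.05 in NZO/HlLtJ (0.00796, edgeR). The C57BL/6J call was lost without replicate 2 of the males on 10% fat, where the adjusted p became 0.0545.

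The nuclear genes had low levels and wider spread. Wt1 had medians of 13.1 CPM in C57BL/6J females (10.1 to 14.7) and 9.21 in males (8.60 to 11.1), of 12.2 (9.66 to 13.9) and 7.46 (7.05 to 10.1) in CAST/EiJ, and of 13.0 (11.5 to 15.6) and 8.51 (6.55 to 9.53) in NZO/HlLtJ. Its sexes overlapped in C57BL/6J and CAST/EiJ and not in NZO/HlLtJ. The log2 difference of Wt1 was 0.43 ± 0.08, 0.53 ± 0.08 and 0.65 ± 0.08 in the order of strains above (adjusted p = 1.24e-05, 8.28e-07 and 2.96e-09, edgeR). Cdkn1c had medians of 14.7 CPM in C57BL/6J females (12.6 to 17.2) and 10.5 in males (9.06 to 13.0), of 9.55 (7.88 to 11.8) and 6.34 (5.36 to 9.07) in CAST/EiJ, and of 17.4 (15.9 to 18.5) and 12.8 (9.84 to 13.9) in NZO/HlLtJ, with overlap in the first pair of strains and none in NZO/HlLtJ. Its female to male ratio was 1.39, 1.42 and 1.42 in the same order (adjusted p = 2.55e-05, 3.17e-05 and 6.28e-06, edgeR).

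**Figure D2:**
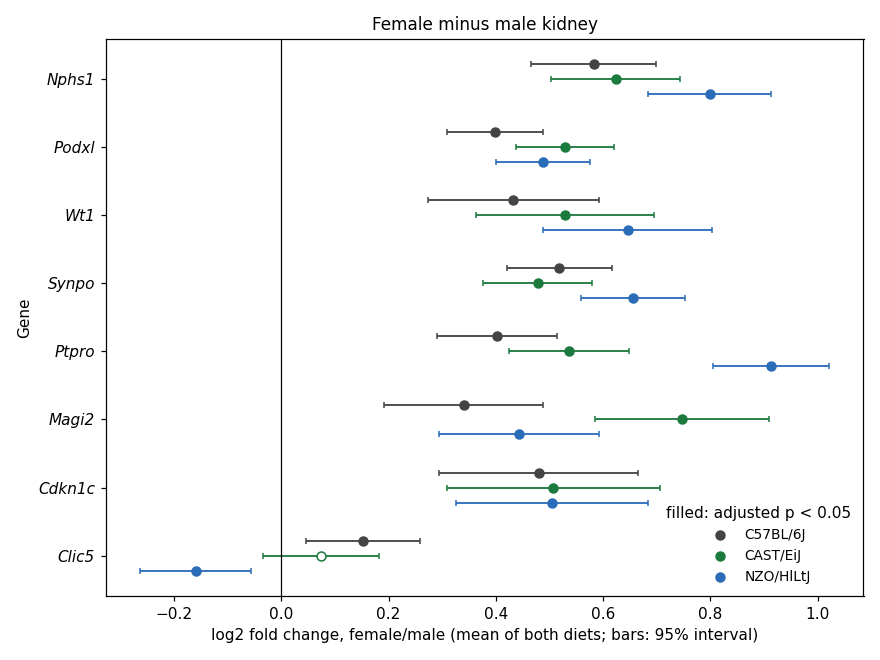
Female minus male log2 fold change of each gene in each strain, averaged over both diets (points; bars are 95% intervals; filled points passed adjusted p under 0.05). The 7 genes other than Clic5 lie between 0.34 and 0.91 in all strains, whereas Clic5 runs from 0.15 in C57BL/6J to -0.16 in NZO/HlLtJ.

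Counting only genes whose female libraries all exceeded the male libraries of the strain gave 5 of the 8 members in C57BL/6J (10.6% of all genes tested), 5 in CAST/EiJ (6.60%) and 6 in NZO/HlLtJ (8.04%). Nphs1, Podxl, Synpo and Ptpro were in this class in every strain. The sample ID numbers fall into 3 runs, of 16, 16 and 15 libraries, whose meaning the labels do not give. Within each run, the 7 members other than Clic5 were higher in females of each strain, by 0.30 to 0.73 on the log2 scale in C57BL/6J and 0.40 to 0.81 in CAST/EiJ. In NZO/HlLtJ the run that holds both diets of both sexes gave 0.49 to 1.05, and in the other 2 runs sex and diet of this strain cannot be told apart. Clic5 in those 3 runs gave 0.21, 0.24 and 0.02 in C57BL/6J, -0.03, 0.12 and 0.14 in CAST/EiJ, and -0.10 in the NZO/HlLtJ run with both diets.

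The sex difference itself varied between strains for 3 members. That of Ptpro was larger in NZO/HlLtJ than in C57BL/6J by 0.51 ± 0.08 on the log2 scale (adjusted p = 7.19e-06) and larger than in CAST/EiJ by 0.38 ± 0.08 (3.11e-04, edgeR). That of Magi2 was larger in CAST/EiJ than in C57BL/6J by 0.41 ± 0.11 (adjusted p = 0.00691). The Magi2 value for NZO/HlLtJ minus CAST/EiJ, -0.30 ± 0.11, had an adjusted p of 0.0505, which fell below 0.05 when any of 12 of the 31 libraries was left out and in 4 of 5 other settings of the fit. Clic5 had a lower sex difference in NZO/HlLtJ than in C57BL/6J, by -0.31 ± 0.07 (adjusted p = 0.00484), and than in CAST/EiJ, by -0.23 ± 0.07 (0.0248, edgeR). The last of these calls was lost without replicate 3 of the CAST/EiJ females on 44% fat, of the CAST/EiJ males on 10% fat or of the NZO/HlLtJ males on 10% fat, with adjusted p up to 0.0912. In all, 2 members were called in NZO/HlLtJ minus C57BL/6J, where 4.95% of genes were, 1 in CAST/EiJ minus C57BL/6J (13.2%) and 2 in NZO/HlLtJ minus CAST/EiJ (14.3%). These 3 differences share libraries and are not independent of each other. The share of members called in CAST/EiJ minus C57BL/6J was near that of all genes. For Cdkn1c the 3 differences lay between -0.002 and 0.03, with 95% intervals reaching from -0.26 to 0.30.

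Other podocyte genes were read from lists of genes related to the members, against 47.9%, 47.6% and 49.9% of all genes called in C57BL/6J, CAST/EiJ and NZO/HlLtJ and 25.1%, 23.7% and 25.4% called higher in females. No list was tested against these shares. Of 12 genes of the slit diaphragm and its adaptors, 6 rose in females and 1 fell in C57BL/6J, 6 rose and 2 fell in CAST/EiJ, and 8 rose and none fell in NZO/HlLtJ. Plce1, a phospholipase C of podocytes, was higher by 0.67, 0.67 and 0.83 on the log2 scale in the same order of strains. In CAST/EiJ the adaptor gene Nck2 and the cadherin gene Fat1 went the other way, at -0.65 and -0.70. The list medians were 0.39, 0.25 and 0.38.

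The podocyte transcription factor list had 3, 5 and 6 of 8 genes higher in females of C57BL/6J, CAST/EiJ and NZO/HlLtJ and 0, 1 and 1 lower, so the called share in C57BL/6J was below that of all genes. Lmx1b, the factor mutated in nail-patella syndrome, was higher by 0.42, 0.78 and 0.83. Of 12 cytoskeletal and foot process genes, 10, 6 and 8 rose and 1, 0 and 0 fell, with Nes, the intermediate filament gene nestin, at 0.40, 0.59 and 0.45. Of 11 genes of the glomerular basement membrane and its receptors, 8, 8 and 5 rose and 1, 2 and 3 fell, and Lamb2, the laminin chain of the mature membrane, was higher by 0.48, 0.44 and 0.51. Of 10 secreted and surface genes, 6, 6 and 5 rose and 3, 1 and 2 fell. In that list Thsd7a was higher by 0.36, 0.47 and 0.75 and Mapt, the tau gene, was lower by values of -0.43, -0.39 and -0.65.

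Markers of other kidney cells were called in the same contrast, to be read against the same shares of all genes (25.1%, 23.7% and 25.4% higher in females). Of 9 glomerular endothelial markers, 6, 7 and 4 were higher in females of C57BL/6J, CAST/EiJ and NZO/HlLtJ and none was lower. Of 7 mesangial and pericyte markers, 7, 4 and 4 were higher and 0, 1 and 1 lower, and of 5 parietal epithelial markers 5, 4 and 3 were higher and none lower. The members summed to 600.3 to 664.8 CPM in C57BL/6J females and 474.5 to 521.3 in males, to 620.8 to 687.9 and 442.5 to 542.2 in CAST/EiJ, and to 613.7 to 654.2 and 429.9 to 560.7 in NZO/HlLtJ. The summed endothelial markers were 508.4 to 580.1 and 454.9 to 526.2 CPM in C57BL/6J, 517.0 to 615.7 and 441.7 to 537.3 in CAST/EiJ, and 477.4 to 547.3 and 404.3 to 533.7 in NZO/HlLtJ. The summed parietal markers were 121.6 to 134.0 and 91.0 to 102.1 CPM in C57BL/6J, 124.9 to 157.5 and 100.3 to 122.1 in CAST/EiJ, and 116.9 to 135.5 and 97.5 to 116.4 in NZO/HlLtJ. The member sums and the parietal sums did not overlap between the sexes in any strain, and the endothelial sums did. Podxl and Clic5 make up most of the member sums. Median sums of the cytoskeletal and basement membrane lists were higher in females in every strain. Those of the transcription factor and secreted and surface lists were higher in males throughout. List sums follow their most abundant genes and not the counts of genes called. Tead1, with a mean of 183.4 CPM over all libraries, made up most of the transcription factor sum. Vegfa and Mapt, with means of 218.5 and 199.4 CPM, made up most of the secreted and surface sum. The slit diaphragm median was higher in CAST/EiJ males (647.3 against 603.2 CPM) and in females of the other strains. The largest parts of that sum were Fat1, Cd2ap and Tjp1, with means of 188.6, 155.3 and 94.2 CPM. Fat1 was lower in CAST/EiJ females, and its part in the median was not tested. In C57BL/6J the secreted and surface sums were 490 to 526.9 CPM in females and 532.2 to 594.5 in males. Medullary and collecting duct markers had 5, 5 and 4 of 7 genes higher in females and 0, 0 and 1 lower, and proximal tubule markers 4, 4 and 3 of 8 higher and 2, 2 and 2 lower. Of 4 mesothelial markers 1, 2 and 4 were higher in females, and of 6 adipocyte markers 0, 0 and 4, with sums of 3.78 to 18.2 CPM and 0.13 to 13.7 CPM over the strain and sex classes. None of the 6 leukocyte markers was called in C57BL/6J or CAST/EiJ and 1 was higher in NZO/HlLtJ females, and of the adrenal cortex markers Star alone was tested and was called in CAST/EiJ, with 0.60 to 3.25 CPM over all libraries. The part of these other cells in the member values was not tested.

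Measured levels differed by strain for single members rather than the set, and in opposite directions. The build named, GRCm38, is that of C57BL/6J, and the aligner and counter are not given. Loss or misassignment of reads from CAST/EiJ and NZO/HlLtJ was not tested. Compared with C57BL/6J, Ptpro was higher and Magi2 and Synpo were lower in both CAST/EiJ and NZO/HlLtJ on both diets, and Cdkn1c was lower in CAST/EiJ than in both other strains. On 10% fat, 3 of 8 members were called in NZO/HlLtJ minus C57BL/6J (36.9% of all genes), 5 in CAST/EiJ minus C57BL/6J (60.0%) and 6 in NZO/HlLtJ minus CAST/EiJ (59.1%). On 44% fat the counts were 5 (42.2%), 7 (62.4%) and 7 (61.7%). On 10% fat the first pair of shares was near the background, and in the other comparisons the share of the 8 members was above it, a difference that was not tested. The comparisons within a diet share libraries, and values from the 2 diets come from separate libraries. In each of the 6 comparisons 3 or 4 of the 8 members had a positive value, and the medians of the members ran from -0.15 to -0.003.

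Ptpro on 10% fat had a median of 20.1 CPM in C57BL/6J (16.7 to 25.3), 36.1 in CAST/EiJ (27.2 to 46.0) and 31.4 in NZO/HlLtJ (19.4 to 44.4), females and males together. On 44% fat the medians were 19.5 (15.5 to 25.7), 32.6 (26.5 to 41.6) and 30.4 (19.6 to 41.7). All CAST/EiJ libraries were above all C57BL/6J libraries on either diet, and NZO/HlLtJ overlapped C57BL/6J through its males and CAST/EiJ through its females. CAST/EiJ exceeded C57BL/6J by 0.76 ± 0.06 on the log2 scale on 10% fat and 0.73 ± 0.05 on 44% fat (adjusted p = 1.34e-15 and 1.41e-15), and NZO/HlLtJ exceeded C57BL/6J by 0.56 ± 0.05 and 0.56 ± 0.05 (1.54e-11 and 2.13e-11, edgeR).

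Magi2 was lowest in CAST/EiJ. Its medians on 10% fat were 17.2 CPM in C57BL/6J (13.4 to 19.5), 9.44 in CAST/EiJ (6.16 to 12.6) and 11.7 in NZO/HlLtJ (9.05 to 15.1), and on 44% fat 16.5 (14.02 to 19.8), 7.95 (5.75 to 11.4) and 11.6 (7.94 to 14.8). No CAST/EiJ library reached a C57BL/6J library on either diet. CAST/EiJ was 2.02-fold and 2.03-fold lower than C57BL/6J on 10% and 44% fat (adjusted p = 1.02e-14 and 1.23e-15), and NZO/HlLtJ was 1.42-fold and 1.45-fold lower (3.59e-07 and 9.95e-08, edgeR). NZO/HlLtJ was above CAST/EiJ by 0.51 ± 0.08 and 0.49 ± 0.08 on the log2 scale (5.38e-07 and 3.84e-07).

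Cdkn1c, the p57 gene, had medians of 13.2 CPM in C57BL/6J (9.84 to 17.2), 9.13 in CAST/EiJ (5.36 to 11.8) and 14.9 in NZO/HlLtJ (9.84 to 18.4) on 10% fat. On 44% fat they were 11.9 (9.06 to 16.7), 8.06 (5.46 to 9.72) and 14.96 (10.5 to 18.5). On 44% fat every CAST/EiJ library was below every NZO/HlLtJ library, and on 10% fat the ranges overlapped. NZO/HlLtJ was above CAST/EiJ by 1.70-fold and 1.93-fold (adjusted p = 4.82e-09 and 7.75e-12, edgeR), and CAST/EiJ was below C57BL/6J by 1.52-fold and 1.60-fold (7.61e-07 and 2.37e-08). NZO/HlLtJ minus C57BL/6J was 0.17 ± 0.09 on 10% fat, which was not called (adjusted p = 0.147), and 0.27 ± 0.09 on 44% fat, which was (0.0134).

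Synpo was highest in C57BL/6J, with medians of 63.7 CPM there (50.3 to 82.9), 57.1 in CAST/EiJ (40.7 to 69.7) and 49.8 in NZO/HlLtJ (32.1 to 63.3) on 10% fat, and 64.1 (50.3 to 77.9), 55.5 (44.6 to 66.3) and 51.5 (36.3 to 61.1) on 44% fat. The strain ranges overlapped on both diets. In the fit, which compares within sex, NZO/HlLtJ was below C57BL/6J by values of -0.40 ± 0.05 and -0.35 ± 0.05 on the log2 scale and CAST/EiJ by -0.27 ± 0.05 and -0.19 ± 0.05 (adjusted p from 5.55e-09 to 6.34e-04, edgeR). The lower level in NZO/HlLtJ than in CAST/EiJ on 10% fat, -0.13 ± 0.05 (adjusted p = 0.0270), was lost when any of 4 libraries was left out, with adjusted p up to 0.189, without the filter on low counts, and in the fit of these strains alone.

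The other members differed less by strain. Nphs1 was higher in CAST/EiJ than in C57BL/6J by 0.17 ± 0.06 and 0.20 ± 0.06 on 10% and 44% fat (adjusted p = 0.0102 and 0.00230, edgeR) and lower in NZO/HlLtJ than in CAST/EiJ by values of -0.18 ± 0.06 and -0.13 ± 0.06 (0.00815 and 0.0445). Both Nphs1 calls on 10% fat were lost without replicate 2 of the CAST/EiJ males, with adjusted p = 0.0970 and 0.0745, and the last call on 44% fat when any of 8 of 16 libraries was left out. Podxl was lower in NZO/HlLtJ than in CAST/EiJ by values of -0.16 ± 0.04 and -0.17 ± 0.04 (adjusted p = 0.00210 and 0.00114). Podxl was not called between C57BL/6J and either other strain, with adjusted p from 0.0637 to 0.224, although in NZO/HlLtJ minus C57BL/6J on 10% fat 2 of 5 other settings called it. Wt1 was called once, lower in CAST/EiJ than in C57BL/6J on 44% fat at -0.20 ± 0.08 (adjusted p = 0.0221), and that call was lost when any of 5 of 16 libraries was left out. Clic5 on 44% fat was higher in NZO/HlLtJ than in C57BL/6J by 0.23 ± 0.05 (2.84e-04) and than in CAST/EiJ by 0.35 ± 0.05 (1.82e-07), and on 10% fat it was 0.10 ± 0.05 in both comparisons and not called (0.145 and 0.122, edgeR). Its lower value in CAST/EiJ than in C57BL/6J on 44% fat, -0.12 ± 0.05 (adjusted p = 0.0445), was lost when any of 8 of 16 libraries was left out.

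**Figure D3:**
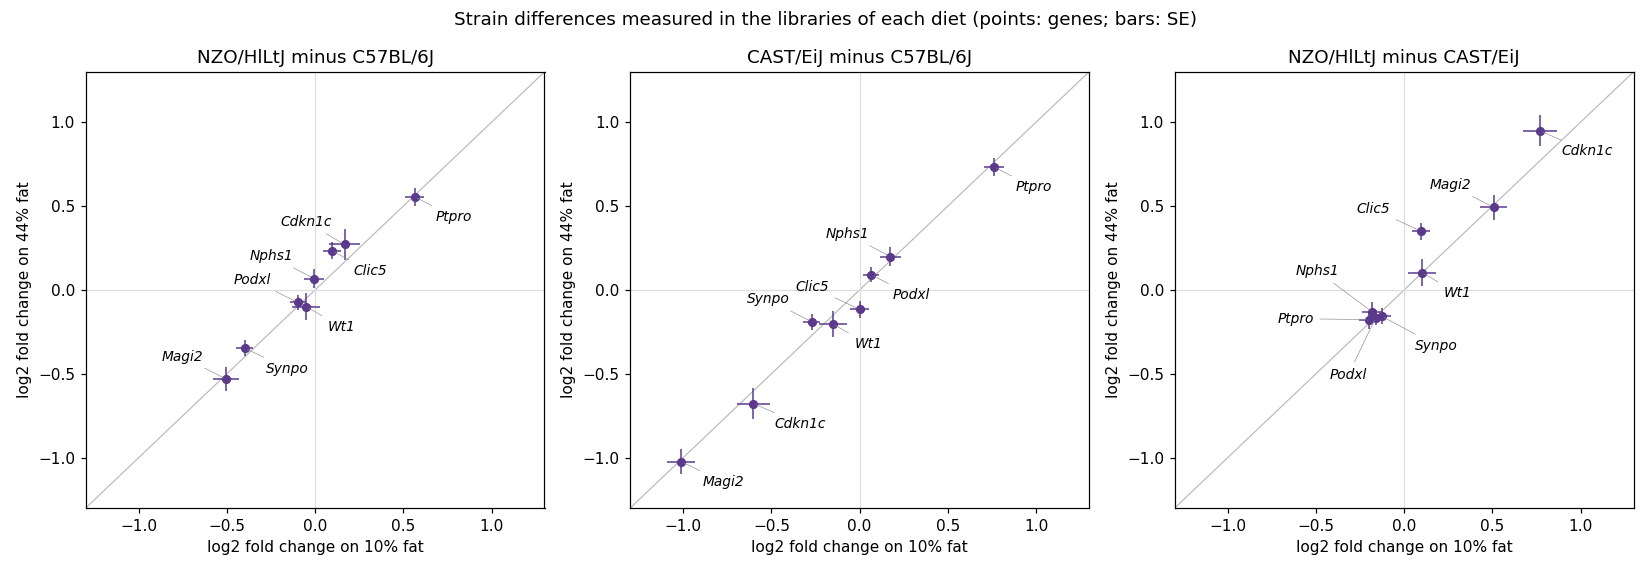
Log2 fold change between strains on 10% fat (horizontal axis) against that on 44% fat (vertical axis), 1 panel for each pair of strains, with points for genes and bars for the SE. Ptpro lies at 0.56 in NZO/HlLtJ minus C57BL/6J on both diets, Magi2 at -1.01 and -1.02 in CAST/EiJ minus C57BL/6J, and Clic5 lies off the diagonal in NZO/HlLtJ minus CAST/EiJ, at 0.10 on 10% and 0.35 on 44% fat.

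Within each ID run, averaged over the sexes, Ptpro in CAST/EiJ minus C57BL/6J was 0.76 to 0.77 and Magi2 -1.03 to -0.99 on the log2 scale. Cdkn1c in NZO/HlLtJ minus CAST/EiJ was 0.74 to 1.00 and Synpo in NZO/HlLtJ minus C57BL/6J was -0.43 to -0.32. These differences had the same sign in each run, although the NZO/HlLtJ libraries of 2 runs hold 1 diet for each sex. Kirrel2, a slit diaphragm protein of the nephrin family, had few reads, 0 to 88 counts per library, and passed the test in NZO/HlLtJ and CAST/EiJ against C57BL/6J on 44% fat, higher in both (adjusted p = 1.92e-13 and 1.67e-08, edgeR). Of the 12 slit diaphragm genes of the list, 3 were higher and 2 lower in NZO/HlLtJ and 4 higher and 1 lower in CAST/EiJ, relative to C57BL/6J on 44% fat, where 42.2% and 62.4% of all genes were called. The called share of this list was thus near that of all genes in NZO/HlLtJ and below it in CAST/EiJ. Of the 12 cytoskeletal genes, 8 were higher and 1 lower in NZO/HlLtJ and 6 higher and 1 lower in CAST/EiJ. Transcription factor genes had 0 higher and 3 lower of 8 in NZO/HlLtJ and 2 higher and 4 lower in CAST/EiJ.

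Diet moved 1 member. On 44% against 10% fat no member was called in C57BL/6J (0.0266% of genes called) or in CAST/EiJ (0.990%), and 1 of 8, Clic5, in NZO/HlLtJ (3.62%). At an unadjusted p under 0.05, 0 members in C57BL/6J, 1 in CAST/EiJ and 2 in NZO/HlLtJ passed, and the DESeq2 Wald test called 0, 0 and 1. The medians of the members were -0.01, -0.03 and 0.02 on the log2 scale.

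Clic5 in NZO/HlLtJ males was 145.3, 160.4, 165.2 and 187.4 CPM on 10% fat and 186.8, 196.0, 211.0 and 213.0 on 44% fat. In NZO/HlLtJ females it was 149.8, 151.3, 160.6 and 161.7 on 10% fat and 158.0, 171.1, 174.7 and 178.7 on 44% fat. In each sex 3 of the 4 libraries on 44% fat were above all libraries on 10% fat, and the lowest overlapped. The increase averaged over the sexes was 1.16-fold, a log2 value of 0.21 ± 0.05 (95% interval 0.11 to 0.32, adjusted p = 0.0124, edgeR). Among the 4 libraries of each sex in the run that holds both diets, 2 on each diet, the log2 difference was 0.36 in males and 0.04 in females. The diet by sex term for Clic5 in this strain, female minus male, was -0.15 ± 0.11 (adjusted p = 0.639).

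In C57BL/6J the diet value of Clic5 was 0.08 ± 0.05 and in CAST/EiJ -0.04 ± 0.05. The difference between NZO/HlLtJ and CAST/EiJ, 0.25 ± 0.07, was not called (adjusted p = 0.0711) and neither was that between NZO/HlLtJ and C57BL/6J, 0.14 ± 0.07 (0.754, edgeR). With the DESeq2 Wald test the first of these was called, and leaving out single libraries moved its adjusted p between 0.0288 and 0.193. The edgeR test therefore did not separate the diet value of Clic5 in NZO/HlLtJ from that in the other strains. No member was called in any of the 3 differences of diet response between strains, where 0.0373%, 0.0532% and 1.28% of genes were, or in the diet by sex term of any strain (0%, 0.0479% and 0.00532%).

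Wt1 had a negative diet value in all 3 strains and passed the test in none. In C57BL/6J females it was 12.8, 13.4, 14.2 and 14.7 CPM on 10% fat and 10.1, 11.9, 12.8 and 13.8 on 44% fat. In CAST/EiJ females it was 12.04, 12.3, 12.7 and 13.9 on 10% and 9.66, 10.2, 11.2 and 12.4 on 44% fat, and in NZO/HlLtJ females 13.3, 13.3, 13.9 and 15.6 against 11.5, 11.8, 12.1 and 12.7. The NZO/HlLtJ females of the 2 diets did not overlap, and the other females did. In C57BL/6J males Wt1 was 8.89, 9.50, 9.64 and 10.6 CPM on 10% and 8.60, 8.72, 8.91 and 11.1 on 44% fat. In CAST/EiJ males it was 7.46, 8.14 and 9.69 on 10% and 7.05, 7.09, 7.46 and 10.1 on 44% fat, and in NZO/HlLtJ males 7.59, 8.04, 9.39 and 9.53 against 6.55, 7.36, 8.98 and 9.15. The males overlapped in every strain, and in C57BL/6J and CAST/EiJ the highest male library was on 44% fat. Averaged over strains and sexes the log2 value was -0.15 ± 0.05 (95% interval -0.24 to -0.06, adjusted p = 0.0505, unadjusted p = 0.00193, edgeR), against 3.81% of genes called. By strain it was -0.12 ± 0.08, -0.17 ± 0.08 and -0.17 ± 0.08 in C57BL/6J, CAST/EiJ and NZO/HlLtJ. The average was called by the DESeq2 Wald test and with DESeq2 size factors in edgeR, and 13 of the 47 sets with 1 library left out called it, with adjusted p from 0.00945 to 0.116.

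For Nphs1, Podxl, Synpo, Ptpro and Magi2 the average diet values lay between -0.05 and 0.06, and their 95% intervals between -0.11 and 0.12, so a change of the size of their sex differences lay outside these intervals. For Cdkn1c the average was -0.06 with an interval from -0.16 to 0.05.

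**Figure D4:**
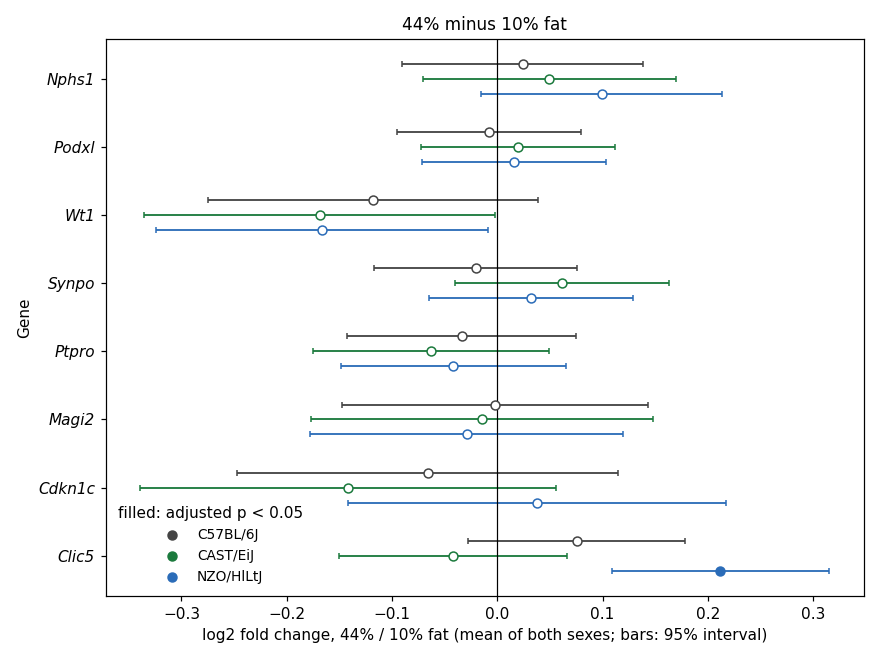
Log2 fold change on 44% against 10% fat of each gene in each strain, averaged over the sexes (points; bars are 95% intervals; filled points passed adjusted p under 0.05). Clic5 in NZO/HlLtJ, at 0.21, is the single filled point, and Wt1 lies between -0.17 and -0.12.

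Of the related lists, 1 of 12 cytoskeletal genes, Actn4, and 1 of 10 secreted and surface genes, Mapt, rose in NZO/HlLtJ on 44% fat, by 0.12 ± 0.03 and 0.16 ± 0.05 (adjusted p = 0.0308 and 0.0460, edgeR). None of the 12 slit diaphragm genes, 8 transcription factor genes, 11 basement membrane genes and 9 glomerular endothelial markers was called there by edgeR. Actn4 encodes the actin cross-linking protein alpha-actinin 4. Medullary and collecting duct markers had 2 of 7 lower, Umod at -0.21 ± 0.05 (0.0130) and Fxyd4 at -0.37 ± 0.10 (0.0250), and proximal tubule markers 1 of 8 higher, Slc13a3 at 0.26 ± 0.06 (0.00888). Their part in the Clic5 value was not tested.

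Within groups, the members' levels were mostly positively correlated across libraries. Deviations of log2 CPM from the group mean were correlated over the 47 libraries for each of the 28 pairs of members. The permutations shuffled the 47 deviations across all groups, although removing group means leaves fewer independent values, so their p-values are somewhat too small. The median Pearson r was 0.28, with a range from -0.08 to 0.79. An adjusted permutation p under 0.05 was reached by 12 pairs (10 by Spearman's rho), or 13 by Pearson's r when ID run means were also removed. The share of all pairs of genes that would pass this rule was not measured, so the count is not a result about podocyte genes. In the NZO/HlLtJ males on 44% fat the mean standardised deviation of the members was -0.94 and -1.18 in the 2 libraries of the first run and 0.94 and 1.18 in those of the second, so run and level moved together in that group. The highest value was that of Podxl and Synpo, r = 0.79 and rho = 0.82 (adjusted permutation p = 2.80e-04 for both, the smallest that 100000 permutations can give after adjustment over 28 pairs), and r was 0.75 without the 2 libraries farthest from the median in Podxl. Nphs1 and Synpo gave r = 0.50, rho = 0.56, and 0.55 without 2 libraries (adjusted permutation p = 0.00327 and 8.40e-04). Podxl and Wt1 gave r = 0.52, rho = 0.47 and 0.51 (0.00294 and 0.00630 by permutation).

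Among the 7 members other than Clic5 all 21 pairs had a positive r, from 0.16 to 0.79. Clic5 was correlated with Podxl, r = 0.42 and rho = 0.38, 0.38 without 2 libraries (adjusted permutation p = 0.0120 and 0.0318), and had r between -0.08 and 0.27 with the other 6. Set against the mean of the other 7 members, Podxl had r = 0.78, Synpo 0.64, Wt1 0.51, Nphs1 0.50, Ptpro 0.49, Cdkn1c 0.36, Magi2 0.35 and Clic5 0.20. The pairs share their libraries and sequencing depth, so these values describe the libraries.

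**Figure D5:**
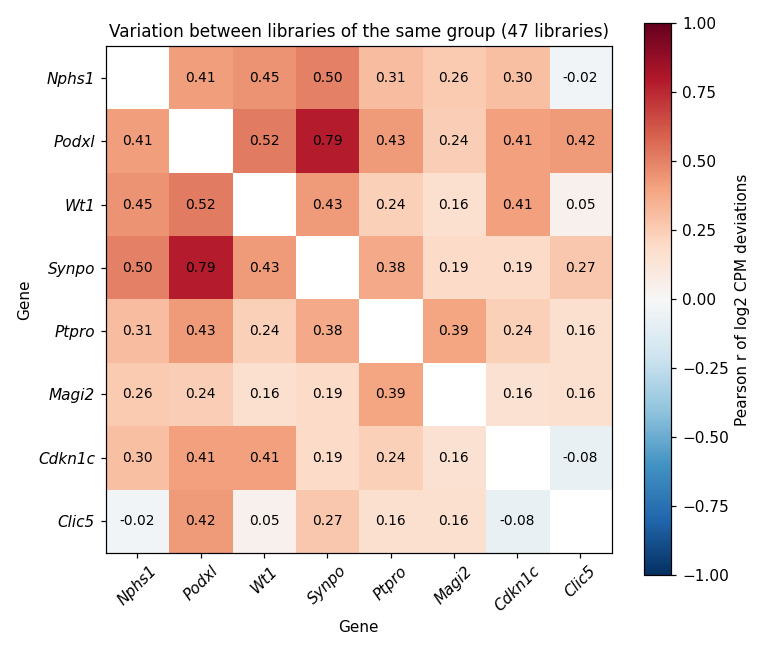
Pearson r between genes of the deviations of log2 CPM from the group mean over 47 libraries (colour scale from -1 to 1, r printed in each cell). Podxl and Synpo have the highest value, 0.79, and the row of Clic5 has the lowest, -0.08 with Cdkn1c.

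Candidates for likeness to the members were 11619 other genes with an average log2 CPM of at least 1. Provisional and pseudogene symbols, such as those with Gm, Rik, LOC or -ps, were left out of them. The 10 candidates whose deviations followed the mean of the members most closely were Myom2 (r = 0.71 over 47 libraries), Sorl1 (0.65), Plce1 (0.65), Mme (0.65), F13b (0.64), Cttnbp2 (0.63), Olfml1 (0.62), Zzz3 (0.62), Slc22a8 (0.61) and P3h2 (0.61). Plce1 belongs to the slit diaphragm list, and the other 9 are in none of the lists. Mme encodes neprilysin, a membrane peptidase, and Slc22a8 encodes an organic anion transporter of the proximal tubule. The median r was 0.17 for the slit diaphragm list, 0.19 for the cytoskeletal list and 0.18 for the transcription factor list. It was 0.06 for the basement membrane list and 0.33 for the secreted and surface list. Glomerular endothelial markers had a median of 0.25 and proximal tubule markers 0.35, against -0.03 for all candidates.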

How the data were processed

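PolyA RNA libraries of mouse kidney were sequenced as 100 bp paired-end reads, per the labels' protocols. The authors deposited expected counts per gene, that is reads assigned to genes by estimation, and 25.9% of the deposited values are not whole. GRCm38 and DESeq2 are named in the submitters' processing notes, and the aligner, counter and strand setting are not given in the sources used here. Counts were rounded, filtered with filterByExpr over the 12 groups (18786 of 22474 genes kept, 3688 left out), scaled by TMM and fitted with edgeR 4.0.16 in R 4.3.3, with robust quasi-likelihood F tests, an additive term for the ID run (3 levels) and 33 residual degrees of freedom. P-values were adjusted by Benjamini-Hochberg over all genes tested, at a threshold of 0.05, and log2 CPM used a prior count of 1. All 69 pairs of libraries within groups differed by more than counting noise (chi-square per degree of freedom 11.4 to 60.3), so none was merged. All 8 members are described. Genes named from lists were up to 4 with the smallest adjusted p per list and comparison, and the 10 most similar genes were ranked by r. Members and lists were chosen with earlier results of these data known. Alternatives were DESeq2 size factors, no count filter, the DESeq2 1.42.0 Wald test, no run term, the compared strains alone, and leaving out each library.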

Additional observations from a re-analysis of the deposited data

Results flagged for a closer look

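Among 88 combinations of gene and group with 4 libraries, 5 held a library far from the other 3 (chance flags about 1 in 20). Nphs1 in replicate 2 of the NZO/HlLtJ females on 10% fat was 35.68 CPM, with the others from 32.52 to 32.69. Synpo in that same library was the lowest of its group at 59.30 CPM, with the others from 62.72 to 63.32. Wt1 was 11.12 CPM in replicate 2 of the C57BL/6J males on 44% fat, with the others from 8.599 to 8.908, and 10.05 CPM in replicate 4 of the CAST/EiJ males on 44% fat, with the others from 7.047 to 7.460. Magi2 in replicate 1 of the CAST/EiJ females on 44% fat was the lowest at 9.29 CPM, with the others from 11.28 to 11.44.

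The female minus male difference varied between strains in 5 tested values. Ptpro differed by 0.511 between NZO/HlLtJ and C57BL/6J and by 0.3763 between NZO/HlLtJ and CAST/EiJ on the log2 scale. Clic5 differed by -0.3123 and -0.2335 in the same comparisons. Magi2 differed by 0.4076 between CAST/EiJ and C57BL/6J. Of all genes tested, 4.95% were called in NZO/HlLtJ minus C57BL/6J and 14.3% in NZO/HlLtJ minus CAST/EiJ. In CAST/EiJ minus C57BL/6J 13.2% of all genes were called, and the 1 of 8 members called there was near that share.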

How the results depend on the processing

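The count of members called was 0 for diet averaged over strains and became 1 with DESeq2 size factors and 1 with the DESeq2 Wald test, in each case Wt1, lower on 44% fat, and leaving out single libraries gave 0 to 1. For the difference of diet values between NZO/HlLtJ and CAST/EiJ it was 0 and became 1 with the DESeq2 Wald test (Clic5, higher), with 0 to 1 when libraries were left out. For the sex difference between CAST/EiJ and C57BL/6J it was 1, with 1 to 2 when libraries were left out, and between NZO/HlLtJ and CAST/EiJ it was 2, with 1 to 3. The cause of these changes was not tested. Over the log2 values of single members, 849 of 872 values from the other settings kept direction and call, 3 lost the call, 9 gained it, 11 changed sign without being called in either fit, and no called value reversed. Of 3760 values with 1 library left out, 31 lost the call, 40 gained it and 177 changed sign without a call. For the DESeq2 Wald test all-gene calls in the NZO/HlLtJ minus CAST/EiJ diet difference were 505 against 241 in edgeR. No paired analysis was possible because the labels carry no replicate numbers and those used here are in accession order. Depth limits Cdkn1c, Magi2 and Wt1 most, whose lowest counts were 196, 215 and 288.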
